A study of Homo sapiens with 3 samples.

Results

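Distal genomic regions that were called as peaks both with an antibody against ZBTB11 and with normal IgG are described here for human chromosomes 1, 10 and 21. ZBTB11, of the ZBTB family of zinc finger proteins, was studied as a transcription factor, and normal IgG is the negative control of the chromatin immunoprecipitation (ChIP-seq), which recovers the DNA that sticks without a specific antigen. The cells were NCI-H1299, an established human lung cancer line, of WT genotype and without treatment. The study describes H1299 cells as p53-null, so WT here does not cover p53. The series holds 1 library with the ZBTB11 antibody, 1 with IgG and 1 Input library, which was not analysed here. With 1 library per antibody no difference has a replicate check, and no p-value across regions is given.

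A region was taken if its ZBTB11 peak overlapped an IgG peak by 1 bp or more and lay more than 3 kb from every GENCODE transcription start site (TSS). This gave 3290 regions out of 48395 ZBTB11 peaks on the 3 chromosomes and 348392 in the whole ZBTB11 list. The choice of chromosomes follows the IgG list, which places 26630 of its 27877 peaks on these 3 chromosomes (95.5%, against 13.9% of the ZBTB11 list). On the other autosomes and X, 20 chromosomes in all, the IgG list as used here has 0 peaks, whereas the ZBTB11 list has 298408. Whether the IgG list is complete is not known, so these shares do not compare binding between chromosomes. The regions made up 8.74% of the 37629 distal ZBTB11 peaks (Wilson 95% interval, 8.46 to 9.03). Conversely, 3283 of 19927 distal IgG peaks overlapped a ZBTB11 peak (16.5%, 15.97 to 17.0). Chromosome 1 held 1724 regions, chromosome 10 held 1185 and chromosome 21 held 381. Intervals cover the counting of regions only, and neighbouring regions are not independent.

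Centromeres of human chromosomes are built on alpha satellite, a tandem repeat whose units are stacked into higher-order arrays over megabases. Blocks of simpler satellites, among them the GGAAT repeats of human satellites 2 and 3, lie beside some centromeres. Reads from such repeats fit many places in a reference genome, and assemblies hold them only in part. Peaks called there can depend on how many copies a cell carries as well as on protein binding. For this reason position and repetition of the sequence were measured beside the strength of each peak. The reference used here has no repeat annotation, so repeats were recognised from the sequence itself.

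The leading kinds of sequence among the regions are shown with 100 bases around the ZBTB11 summit, on the plus strand of hg38. The first set is from the GGAAT-rich blocks, where the strongest of these regions lay, and capitals mark GGAAT or its complement ATTCC.
Chromosome 1 q side, chr1:143202619-143202718: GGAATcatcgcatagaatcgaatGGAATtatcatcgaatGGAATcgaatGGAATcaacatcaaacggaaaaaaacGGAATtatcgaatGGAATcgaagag
Chromosome 1 beside the array, chr1:125180181-125180280: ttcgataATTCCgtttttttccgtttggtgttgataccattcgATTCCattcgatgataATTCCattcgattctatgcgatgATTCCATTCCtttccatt
Chromosome 10 q side, first block, chr10:41859885-41859984: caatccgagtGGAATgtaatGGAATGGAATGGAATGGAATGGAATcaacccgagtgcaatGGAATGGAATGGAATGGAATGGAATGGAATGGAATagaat
Chromosome 10 q side, second block, chr10:42070658-42070757: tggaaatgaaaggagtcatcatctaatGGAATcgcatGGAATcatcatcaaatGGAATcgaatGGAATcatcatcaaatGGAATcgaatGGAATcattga
Chromosome 21 p side, chr21:10692803-10692902: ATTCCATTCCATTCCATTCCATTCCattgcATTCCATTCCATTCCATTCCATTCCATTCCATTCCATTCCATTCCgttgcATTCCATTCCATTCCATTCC
The last of these is an almost unbroken run of ATTCC, whereas on chromosome 1 most of the 5-base words are separated by other bases.

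The second set is from alpha satellite, with the strongest IgG region of each main cluster. Capitals mark the central 31 bases, whose exact copies were counted in the assembly.
Chromosome 1 array, chr1:124673134-124673233: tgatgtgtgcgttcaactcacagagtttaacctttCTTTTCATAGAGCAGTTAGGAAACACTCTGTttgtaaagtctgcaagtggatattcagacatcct
Chromosome 10 array, chr10:40556611-40556710: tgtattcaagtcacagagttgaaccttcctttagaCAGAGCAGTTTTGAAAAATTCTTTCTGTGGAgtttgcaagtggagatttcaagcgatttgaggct
Chromosome 21 array, chr21:12106353-12106452: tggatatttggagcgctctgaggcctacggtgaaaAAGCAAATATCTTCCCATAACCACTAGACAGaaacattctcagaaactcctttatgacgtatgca
Chromosome 1 p side, chr1:121767590-121767689: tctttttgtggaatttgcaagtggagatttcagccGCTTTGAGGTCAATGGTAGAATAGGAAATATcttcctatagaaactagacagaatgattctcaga
The capitals of the chromosome 1 array sequence occurred 6262 times on 5 chromosomes, those of the chromosome 21 array 2478 times on 4 chromosomes, and those of the chromosome 10 array 387 times, on chromosome 10 alone.

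The third set is from the chromosome arms, where strong regions were few and of several kinds. Capitals mark the central 31 bases.
Chromosome 10 q end, near DUX4L20, chr10:133688636-133688735: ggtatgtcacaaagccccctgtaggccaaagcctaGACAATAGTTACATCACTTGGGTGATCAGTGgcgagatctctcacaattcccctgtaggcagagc
TTC34 intron, chr1:2652257-2652356: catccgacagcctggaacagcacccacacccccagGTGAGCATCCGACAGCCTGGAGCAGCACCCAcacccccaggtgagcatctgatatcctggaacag
Chromosome 1 q arm, chr1:236097212-236097311: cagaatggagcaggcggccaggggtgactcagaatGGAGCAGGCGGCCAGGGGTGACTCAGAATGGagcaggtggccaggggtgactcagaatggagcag
tRNA genes of chromosome 1, chr1:161454740-161454839: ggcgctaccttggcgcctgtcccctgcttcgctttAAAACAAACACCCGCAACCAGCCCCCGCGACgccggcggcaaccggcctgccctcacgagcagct
The first 3 are parts of tandem repeats or repeated blocks.

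Many of the regions lay in or beside a centromere. The alpha satellite array of each chromosome was taken as the longest stretch of 10 kb windows with identity of more than 50% at the repeat length of alpha satellite or of its dimer, and was chr1:122080001-125060000, chr10:39690001-41590000 and chr21:10990001-12860000. Within the arrays lay 881 regions (26.8%, 25.3 to 28.3), and 364 more (11.1%) lay within 5 Mb of an array, counted without assembly gaps. Together these 1245 pericentromeric regions were 37.8% of all (36.2 to 39.5). Of the 34339 distal ZBTB11 peaks without an IgG peak, 7.97% were pericentromeric (7.69 to 8.26) and 1.13% lay in an array. Distal IgG peaks without a ZBTB11 peak gave 8.78% (8.36 to 9.22) and 1.55%. The 1444 ZBTB11 peaks near a TSS that overlapped an IgG peak gave 8.24%, with 0 in an array. The intervals of the regions and of each of these sets do not overlap. The arrays took up 1.29% of the gap-free bases of chromosome 1, 1.43% of chromosome 10 and 4.66% of chromosome 21.

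**Figure D1:**
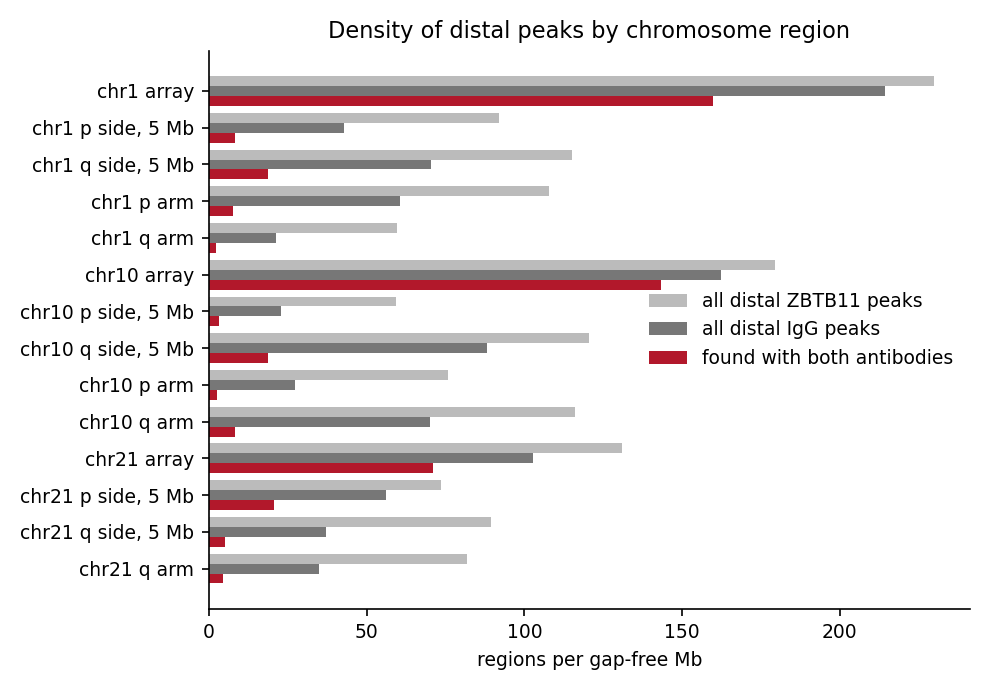
Distal peaks per gap-free Mb (x axis) in the array, the 5 Mb on each side of it and the rest of each arm (rows) of chromosomes 1, 10 and 21. Light grey bars give all distal ZBTB11 peaks, dark grey bars all distal IgG peaks and red bars the regions found with both; red bars reach 159.8, 143.2 and 71.2 per Mb in the arrays and stay at or under 8.24 per Mb on the arms.

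Counted per gap-free Mb, the regions numbered 159.8 in the chromosome 1 array, 143.2 in that of chromosome 10 and 71.2 in that of chromosome 21. In the arrays 69.6%, 79.8% and 54.3% of distal ZBTB11 peaks overlapped an IgG peak. The flanks were uneven. On the p side of chromosome 21, which holds the short arm with its ribosomal RNA genes, there were 20.8 regions per Mb and 28.3% of ZBTB11 peaks overlapped (23.7 to 33.4), whereas its q side had 5.20 per Mb and 5.82%. The q sides of chromosomes 1 and 10 had 18.8 per Mb each, and their p sides 8.20 and 3.2.

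The arms also differed from each other. The p arm of chromosome 1 held 889 regions, 7.62 per Mb, and its q arm 224, 2.22 per Mb. On chromosome 10 the order was turned, with 88 regions on the p arm (2.55 per Mb) and 715 on the q arm (8.24 per Mb). The arms with more shared regions also had more distal peaks in each list. On chromosome 1, for example, the p arm had 107.8 ZBTB11 and 60.5 IgG peaks per Mb, and the q arm 59.6 and 21.3. H1299 cells carry abnormal chromosome numbers, and the part of copy number in these densities was not tested.

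Many summits were at a sequence that occurs again in the genome. The central 31 bases of the ZBTB11 summit had at least 1 further exact copy in 1617 regions (49.1%, 47.4 to 50.9), with a median of 452 copies among these. Copies on another chromosome were found for 1239 of them. The share was 99.8% in the arrays, 72.3% in the flanks and 23.2% on the arms (21.5 to 25.1). In ZBTB11 peaks without an IgG peak it was 18.6% in all (18.15 to 18.97). By position it was 99.5% in the arrays, 45.2% in the flanks and 15.6% on the arms (15.19 to 15.99). The share was thus alike in the arrays, whereas in the flanks and on the arms the shared regions were repeated more often. Distal IgG peaks without ZBTB11 gave 21.2% in all and shared peaks near a TSS 15.1%.

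By the sequence within 500 bp of the summit, 922 regions were of the alpha type (28.0%), 91 were rich in GGAAT with at least 20 matches on either strand (2.77%), 64 were other tandem repeats (1.95%) and 581 were repeated without a tandem structure (17.7%). The remaining 1632 were single-copy (49.6%, 47.9 to 51.3). In ZBTB11 peaks without IgG the alpha type made up 1.38% and GGAAT-rich sequence 0.137%. In the arrays 872 of 881 regions were of the alpha type, and on the arms 0 of 2045 were. The arrays were drawn by identity at the same repeat lengths, so their share was largely set by that definition. GGAAT-rich regions numbered 38 on chromosome 1, 40 on chromosome 10 and 13 on chromosome 21, with a median of 51 matches per window, and 89 of them lay in the flanks. A median region on the arms had 2 matches.

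**Figure D2:**
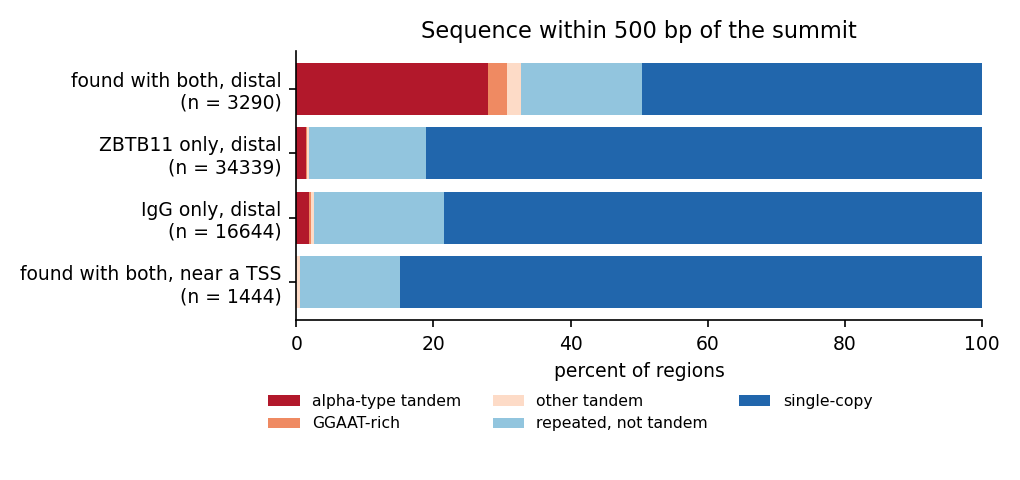
Percent of regions (x axis) in each sequence class for the regions found with both antibodies, distal ZBTB11-only and IgG-only peaks, and peaks near a TSS found with both (rows, with n). The alpha type fills 28.0% of the top bar and at most 1.875% of each of the others.

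The repeat unit differed between the arrays. The best repeat length was that of a dimer, around 340 bases, in 94.96% of the chromosome 1 regions and 99.3% of the chromosome 10 regions, but that of a single unit in 81 of 133 chromosome 21 regions (60.9%, 52.4 to 68.8). The median number of exact copies of the central 31 bases was 2476, 515 and 1717. All 133 summit sequences of the chromosome 21 array and 458 of 476 of chromosome 1 also occurred on another chromosome, against 116 of 272 of chromosome 10. The CENP-B box, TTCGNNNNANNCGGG as searched on both strands, is the site in alpha satellite that centromere protein CENP-B binds. It lay wholly within 100 bp of the ZBTB11 summit in 46.2% of chromosome 1 array regions (41.8 to 50.7), 49.3% of chromosome 10 (43.4 to 55.2) and 45.9% of chromosome 21 (37.6 to 54.3). Of all windows of the same length tiled over these arrays, 41.1%, 47.2% and 40.9% held it. This array share lay within the interval of the regions on chromosomes 10 and 21, and just below it on chromosome 1.

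Regions far from annotated genes were mostly in the arrays. The regions lay at a median of 27.1 kb from the nearest TSS, and 1054 lay more than 100 kb away, among them all 881 of the arrays (32.04%, against 7.60% of distal ZBTB11 peaks without IgG). On the arms 58.8% of summits lay in an intron and 37.3% between genes. Just inside the 3 kb limit, a region 3005 bp from the start of SLC2A5 had 5 ZBTB11 and 6 IgG fragments, and just outside it, one 2994 bp from the start of ITGB1 had 9 and 7. At the limit of overlap, 61 regions overlapped by 10 bp or less, with median pileups of 5 and 6 fragments, and 60 distal ZBTB11 peaks missed an IgG peak by under 10 bp, with medians of 5 and 5.

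The strength of each peak was expressed as pileup, the number of fragments over the summit, solved from the deposited fold enrichment and p-value. The genome-wide background, taken as the most common value solved over the peaks of each list, was 1.354 fragments with ZBTB11 and 1.551 with IgG. Over all regions the ZBTB11 pileup ranged from 3 to 322 with a median of 5, and the IgG pileup from 4 to 425 with a median of 6. In the arrays the medians were 10 and 13, in the flanks 6 and 7, and on the arms 5 and 6. At least 20 fragments were reached by 246 regions with ZBTB11 and by 344 with IgG, of which 24 and 13 were on the arms. Fewer than 10 fragments in both lists were found in 1959 of 2045 arm regions (95.8%). Thus at 10 or more fragments in both lists there were 580 regions, 558 of them pericentromeric and 22 on the arms.

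By the deposited q-value, 932 regions (28.3%) were at 0.05 or less in the ZBTB11 list, where all peaks on the 3 chromosomes gave 8.12%, and 803 (24.4%) in the IgG list, where all peaks gave 4.4%. Both were at 0.05 or less in 663 regions (20.2%, 18.8 to 21.6). This share was 62.0% in the arrays (58.7 to 65.1), 24.7% in the flanks and 1.32% on the arms (0.909 to 1.91). It was 75.3% in the GGAAT-rich regions of the flanks and 0.129% in single-copy arm regions, 2 of 1556. Shared peaks near a TSS gave 3.81%, with 687 of 1444 at 0.05 or less for ZBTB11 and 84 for IgG.

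In the satellites the strength with ZBTB11 followed the strength with IgG. Spearman's rho of the pileups over regions was 0.80 in the arrays, 0.98 in the 89 GGAAT-rich regions of the flanks, and 0.19 on the arms, where nearly all values lie between 3 and 9 fragments. These are correlations over regions of 1 pair of libraries, which share mappability and copy number, and are given as a description. Divided by the backgrounds, the ZBTB11 pileup was a median of 0.89 times the IgG pileup in the arrays, with a log2 ratio of -0.17 and quartiles of -0.48 and 0.20. The log2 ratio was -0.35 in the GGAAT-rich regions of the flanks and -0.07 on the arms. In shared peaks near a TSS it was 0.46. Over all regions it was -0.13.

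**Figure D3:**
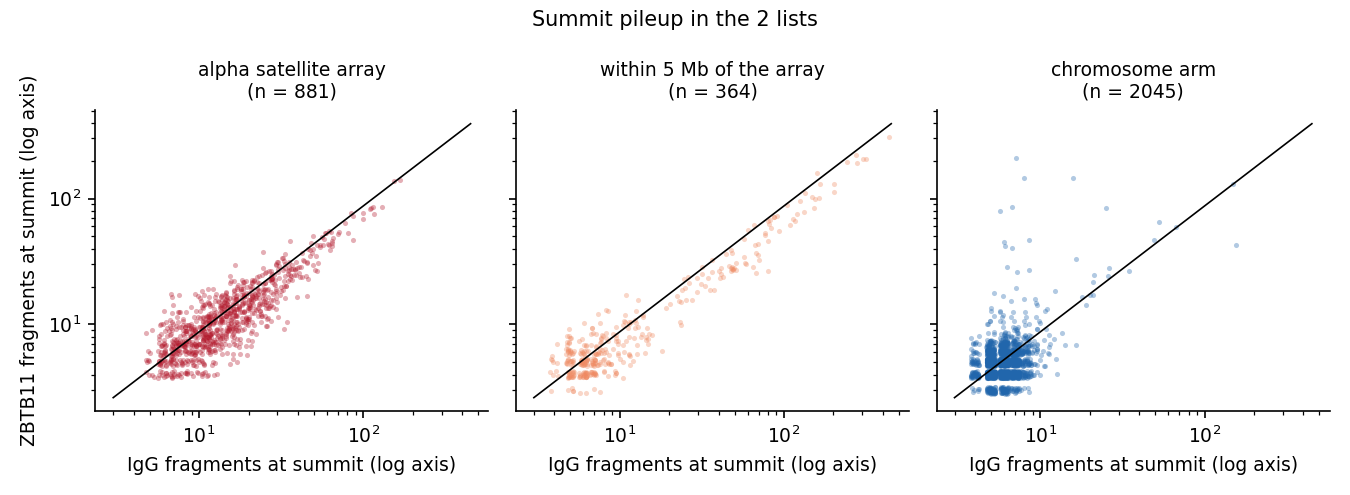
ZBTB11 fragments (y axis, log) against IgG fragments (x axis, log) at the summits of each pair in the arrays, the flanks and on the arms, with points spread slightly because fragments are whole numbers. The black line marks equal pileup per background. Array and flank points rise along it up to 146 and 322 ZBTB11 fragments, with the GGAAT-rich flank points mostly below it (median log2 ratio -0.35). Most arm points lie under 10 fragments in both lists, with a column of points that are high with ZBTB11 only.

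Regions past a 2-fold difference in pileup per background were few. In 53 of 3290 regions ZBTB11 was at least 2-fold higher (1.61%, against 11.9% of all 4734 overlapping pairs, distal or near a TSS), and in 76 IgG was (2.31%, against 1.99%). Of shared peaks near a TSS, 510 of 1444 were at least 2-fold higher with ZBTB11 (35.3%, 32.9 to 37.8). Among the regions, 42 of the 53 were on the arms, which is 2.05% of arm regions, against 1.02% of array regions. Of the 76 with higher IgG, 39 were in the arrays, which is 4.43% of array regions, against 1.27% of arm regions. As 95.8% of arm regions had under 10 fragments in both lists, a 2-fold difference there can rest on few fragments.

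**Figure D4:**
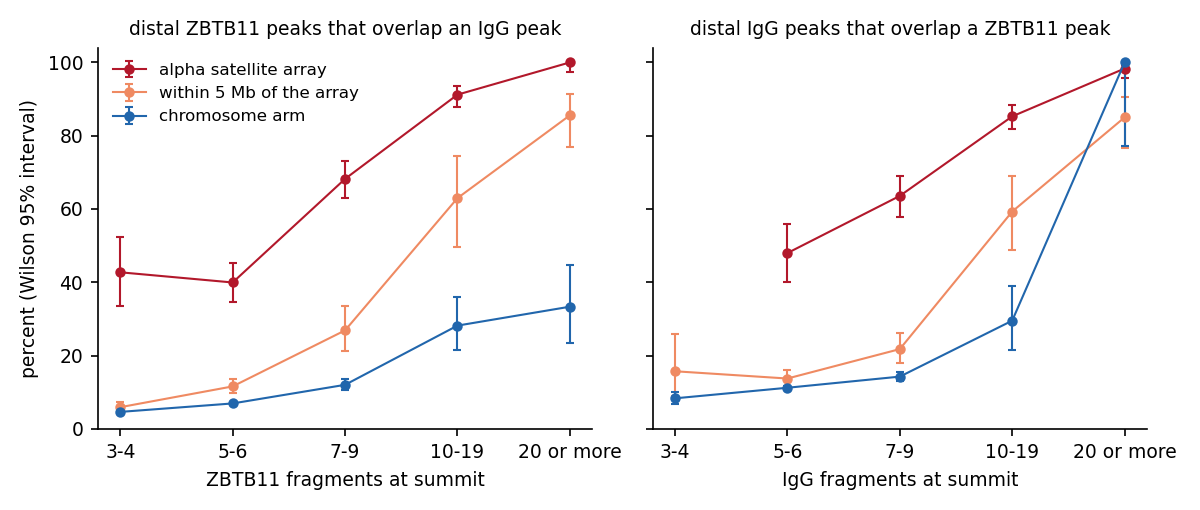
Percent of distal ZBTB11 peaks that overlap an IgG peak (left) and of distal IgG peaks that overlap a ZBTB11 peak (right), by fragments at the summit (x axis), with Wilson 95% intervals; colours mark arrays, flanks and arms, and bins of under 10 peaks are left out. Of ZBTB11 peaks with 20 or more fragments, 100% in the arrays but 33.3% on the arms overlap an IgG peak.

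At equal ZBTB11 strength, a peak of the ZBTB11 list was found with IgG more often in an array than on an arm. The arrays also held more distal IgG peaks to overlap. These numbered 214.2, 162.2 and 102.7 per Mb in the arrays of chromosomes 1, 10 and 21, against 21.3 to 70.1 on the arms. The part of this density in the shares was not tested. With 5 or 6 fragments, 39.9% of ZBTB11 peaks in the arrays (34.8 to 45.4), 11.6% in the flanks and 6.93% on the arms (6.52 to 7.37) overlapped an IgG peak. With 10 to 19 fragments the shares were 91.2%, 63.0% and 28.2% (21.4 to 36.1). With 20 or more, all 145 ZBTB11 peaks in the arrays were shared, 77 of 90 in the flanks and 24 of 72 on the arms. Seen from the IgG list, 236 of 240 array peaks with 20 or more fragments overlapped a ZBTB11 peak, 85 of 100 in the flanks and 13 of 13 on the arms.

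The summits of a pair aligned closely in satellites and loosely elsewhere. The overlap was a median of 249 bp, or 83.0% of the shorter peak, with median widths of 356 bp (ZBTB11) and 358 bp (IgG). A total of 3179 pairs (96.6%) were 1-to-1, and 35 regions overlapped 2 IgG peaks. The IgG summit lay after the ZBTB11 summit in 1657 pairs, before it in 1623 and on the same base in 10, with a median difference of 1 bp, so there was no offset to one side. Summits lay within 100 bp of each other in 1473 pairs (44.8%, 43.1 to 46.5). This share was 78.2% in the arrays (75.4 to 80.8) with a median distance of 38 bp, 42.3% in the flanks with 127.5 bp, and 30.8% on the arms (28.8 to 32.8) with 169 bp.

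Summits lay closer with greater strength in the arrays and the flanks, but not on the arms below 20 fragments. Binned by the smaller of the 2 pileups, the share within 100 bp in the arrays was 45.5% at 3 or 4 fragments, 64.2% at 5 or 6, 76.4% at 7 to 9, 84.5% at 10 to 19 and 93.1% at 20 or more (87.5 to 96.3), with a median distance of 20 bp in the last. In the flanks the share was 23.8%, 29.8%, 36.4%, 64.3% and 79.2% in the same bins. The median distance there was 179 bp in the first bin and 23 bp in the last. On the arms the share was 31.4%, 29.6% and 35.0% up to 9 fragments, then 4 of 11 and 6 of 11 pairs. Median widths of array and arm peaks were alike at 3 or 4 fragments (258 bp each), and at 5 or 6 were 297 bp in the arrays and 353.5 bp on the arms. Arm peaks were also wider at 7 to 9 fragments (468 bp against 349 bp in the arrays). The widths were 856 and 408.5 bp at 10 to 19, and 705 and 515 bp at 20 or more. The part of width in these distances was not tested. In the GGAAT-rich regions of the flanks the median distance was 28 bp, and 71.9% of pairs were within 100 bp, against 23.7% in the single-copy regions of the flanks.

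**Figure D5:**
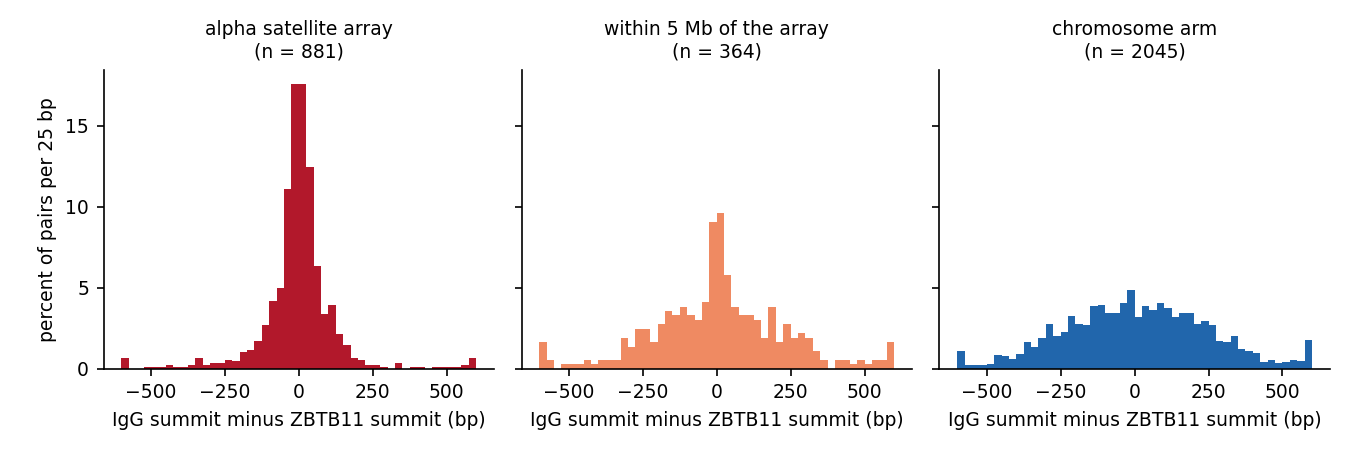
Percent of pairs per 25 bp of the IgG summit position minus the ZBTB11 summit position (x axis) in the arrays, the flanks and on the arms; the end bins hold all larger differences. The distribution is a narrow peak at 0 in the arrays, where 78.2% of pairs lie within 100 bp, and broad on the arms, where 30.8% do.

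Chained with gaps of at most 100 kb, 1783 regions formed 119 clusters of 5 or more. Of these, 90 lay on the arms with 630 regions, and 28 were wholly pericentromeric with 1147. An IgG median over 10 fragments was found in 3 of the arm clusters. There were 7 clusters of 20 or more regions, which together held 966 regions (29.4%). The largest 3 were the arrays. The cluster chr1:122231148-124925969 had 474 regions with median pileups of 10 (ZBTB11) and 13 (IgG), chr10:39936221-41584666 had 272 with 14 and 17, and chr21:11224642-12984528 had 126 with 7 and 10. Their highest IgG pileups were 128, 160 and 43, and 78.7%, 80.1% and 76.2% of their pairs had summits within 100 bp. The chromosome 10 array was thus the strongest and the chromosome 21 array the weakest of the 3 in both lists.

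The other 4 of these clusters lay in the flanks, and 3 were GGAAT-rich. In chr1:143184735-143404786 there were 32 regions, 27 of them GGAAT-rich, with median pileups of 51 and 81, the highest of all clusters. In chr10:41816113-41915103 there were 21, 20 of them GGAAT-rich, with 28 and 41. In chr10:42066453-42264329 there were 20, 14 of them GGAAT-rich, with 37 and 72. The cluster chr1:121384673-121851255 had 21 regions, 13 of them of the alpha type, with 6 and 8. A repeat length of 26 bases was the best in 24 regions of the first and 14 of the third, and of 5 bases in 14 of the second.

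The strongest IgG regions of chromosome 1 were all GGAAT-rich. The region chr1:125178906-125180683 had 322 ZBTB11 and 425 IgG fragments, chr1:143232446-143233401 had 208 and 310, and chr1:143202388-143202903 had 208 and 287. Their ratios per background were 0.87, 0.77 and 0.83. Counting intervals were 0.749 to 1.005, 0.642 to 0.919 and 0.691 to 0.996. Their summits differed by -14, -15 and 2 bp. The fold enrichment of the first was only 6.04 and 5.70 because its local background was 52.5 and 73.8 fragments, whereas that of the third was 19.1 and 17.2 over 9.96 and 15.7. A high fold was therefore not the same as a high pileup in these blocks.

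On chromosome 10 the strongest was chr10:42070424-42071102, GGAAT-rich, with 150 and 169 fragments. Next was chr10:40556214-40557232 in the array with 146 and 160, followed by chr10:133688162-133688925 at the end of the q arm with 123 and 153. On chromosome 21 the strongest was chr21:10692369-10693170, with 133 and 175 fragments and fold enrichments of 21.5 and 21.4, the highest IgG fold of all regions. Its central 31 bases occurred 5911 times on 20 chromosomes. The next on chromosome 21 were chr21:8219593-8220121 and chr21:8220407-8220686, with 32 and 26 ZBTB11 fragments, which share 1 IgG peak of 71 fragments. They lay 7.02 and 7.83 kb from the start of RNA5-8SN2, which encodes 5.8S ribosomal RNA, on the short arm.

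A second group near ribosomal RNA genes was chosen after its values were seen. The cluster chr21:8398764-8458129 had 12 regions, 11 of them repeated without a tandem structure, with ZBTB11 pileups of 15 to 31 and IgG pileups of 27 to 62. The median log2 ratio was -0.55.

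On the arms, the 10 regions with the highest IgG pileup were all at repeated sequence. Of these, 4 lay at the end of the q arm of chromosome 10 beside DUX4L20 and DUX4L15, pseudogene copies of DUX4. Their IgG pileups were 153 for a peak shared by 2 regions with 43 and 123 ZBTB11 fragments, 69 with 60, and 47 with 47. These sequences had best repeat lengths of 68 or 137 bases. The region chr1:236097007-236097505, between genes, had 28 and 33, with a repeat of 29 bases.

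A further 4 were in introns. In TTC34, chr1:2652147-2652482 had 25 and 27 fragments within a 40-base tandem repeat, and the cluster around it, chr1:2643049-2758813, had 11 regions, 10 of them tandem. In DOCK1, which encodes a guanine nucleotide exchange factor of Rac, chr10:126947302-126948394 had 17 and 22 within a 34-base repeat. The last pair, chr1:161447847-161449069 with 27 and 25 and chr1:161454327-161455031 with 83 and 26, lay in an intron of the lncRNA ENSG00000283360 among tRNA genes, 230 bp from TRD-GTC2-2 and 111 bp from TRE-CTC1-3.

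Transfer RNA genes recurred among the shared regions, in a comparison that was not planned in advance. Within 1 kb of 1 of the 102 tRNA genes that RefSeq (GRCh38.p14) lists on these chromosomes lay 16 regions (0.486%, 0.30 to 0.789), against 18 of 34339 distal ZBTB11 peaks without IgG (0.0524%, 0.0332 to 0.0829) and 12 of 16644 IgG peaks without ZBTB11 (0.0721%). GENCODE lists no nuclear tRNA transcripts among its TSSs, so peaks at these promoters counted as distal. The 16 regions are not independent, so their interval is too narrow. The cluster chr1:161427555-161531277 held 7 of them, among these most of those with at least 20 ZBTB11 fragments. The chromosome 21 regions among the 16 lay near the same gene, TRG-GCC1-5. At least 20 ZBTB11 fragments were found in 6 of the 16, among them chr1:161455254-161456260 with 31 (IgG 17) near TRD-GTC2-3, chr1:161462607-161463121 with 25 (IgG 20) near TRD-GTC2-4 and chr1:161463299-161463796 with 21 (IgG 20) at TRL-CAG1-4. Most of these genes have near-identical copies, so reads may have been divided between them.

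Among regions with at least 20 fragments in both lists, the ratio per background was highest at chr1:161454327-161455031 (3.66, counting interval 2.33 to 5.92). Ratios above 1 were also found at chr1:124602813-124603319 in the array (36 and 24 fragments, 1.72, 0.997 to 3.01), at chr1:161462607-161463121 (1.43) and at chr10:40065666-40066331 in the array (1.42). The intervals of these 3 include 1, and the summits of chr1:161462607-161463121 lay 1263 bp apart. The lowest was chr10:133686992-133687905 (0.322, 0.224 to 0.454). It was followed by chr10:42066453-42066936 (28 and 81 fragments, 0.396) and the 2 regions near RNA5-8SN2 (0.42 and 0.516). After these came chr1:143200174-143200431 (29 and 62 fragments, 0.536, 0.332 to 0.846). In 4 of these 5 the 2 summits differed by more than 100 bp, so the pileups were not taken at the same base.

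Single-copy regions had no strong IgG peak, with at most 13 IgG fragments among 1632. Yet 10 of them on the arms had 20 or more ZBTB11 fragments. With 1 repeated region, chr1:149558274-149559183 (50 and 9) near the tRNA gene TRN-GTT25-1, they form the 11 arm regions with at least 20 ZBTB11 and under 10 IgG fragments, a group chosen after its values were seen. The highest was chr1:33126878-33127777, between genes, with 214 and 7 fragments. It was followed by an intron of EPHB2, which encodes an ephrin receptor (chr1:22750098-22750774, 155 and 8), of FRMD4A (chr10:13882247-13882841, 83 and 7) and of DLG5 (chr10:77873613-77874354, 76 and 6). In RUNX1, which encodes a transcription factor of blood development, chr21:34807928-34808705 had 30 and 6. Their ratios are fixed by how they were chosen and are given as a description.

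Of these, 2 are shown with 100 bases around the ZBTB11 summit, with capitals at CCGGAAG or CAGGAAG on either strand, the ZBTB11 motif named by the study.
Chromosome 1 p arm, chr1:33127230-33127329: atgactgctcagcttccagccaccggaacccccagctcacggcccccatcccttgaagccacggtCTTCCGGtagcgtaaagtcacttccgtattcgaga
RUNX1 intron, chr21:34808354-34808453: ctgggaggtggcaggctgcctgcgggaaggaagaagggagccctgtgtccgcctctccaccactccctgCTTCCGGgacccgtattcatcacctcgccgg
Among the 11, 5 had the motif no more than 50 bp from the summit, as did 1 of the 13 arm regions with at least 20 ZBTB11 and 10 IgG fragments. It was found in 100 of all 3290 regions (3.04%, 2.51 to 3.68), 1 of 881 in the arrays, 10 of 364 in the flanks and 89 of 2045 on the arms (4.35%, 3.55 to 5.33). Distal ZBTB11 peaks without IgG gave 3.002% (2.83 to 3.19) and shared peaks near a TSS 11.6% (10.1 to 13.4). On the arms the share rose from 77 of 1981 regions under 10 ZBTB11 fragments (3.89%) to 6 of 40 at 10 to 19 and 6 of 24 at 20 or more. In ZBTB11 peaks without IgG it was 2.90%, 24.5% and 27.1%. The study derived this motif from strong ZBTB11 peaks of its own ChIP-seq. Higher shares at more ZBTB11 fragments, also among the 11 regions, are therefore not independent of how the motif was found. In the arrays and flanks, 0 of 598 regions with 10 or more ZBTB11 fragments held the motif (Wilson upper bound, 0.638%). Many of these regions share repeated satellite sequence, so they are not independent and the bound is too narrow. The share of all array windows that hold the motif was not measured.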

How the data were processed

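The study immunoprecipitated chromatin from formaldehyde-fixed, sonicated NCI-H1299 cells and sequenced both fragment ends. Per its methods, the authors used BWA for alignment to hg38 and MACS for peaks at a p-value below 0.05, separately for ZBTB11 and IgG. The deposited files have a layout of later MACS releases, so the release is not certain. The authors deposited for each peak the fold enrichment (a ratio of summit to local background), −log10 p and −log10 q. A score, also deposited, was left aside. Total read numbers were not used here.

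Groups were taken from the sample titles. Pileup and background were solved from fold and p by the MACS formulas, within 0.002 of the deposited −log10 p for 100% of peaks. The procedure was tested on simulated data. The main IgG partner was the peak of largest overlap. TSSs came from GENCODE release 44. Distances to an array were counted without gaps, on the hg38 reference, in Python 3.11.15 with numpy 2.4.6, pandas 2.3.3 and scipy 1.17.1. Tandem repeats were scored by identity at shifts of up to 400 bases, at least 50% counting as tandem; the alpha type needed a best shift near 171 or 340 bases. Exact copies of 31 bases were counted on both strands without alternate loci. Shares carry Wilson 95% intervals, and pileup ratios exact binomial intervals for counting error only.

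Named were the 3 regions of highest IgG pileup per chromosome, the 10 highest on the arms, the 5 highest and 5 lowest ratios at 20 or more fragments in both lists, and clusters of 20 or more. Alternatives were another p-value, overlap, TSS distance, window, copy length, chromosome set, scaling and gap. The members and lists were chosen with earlier results of these data known. Input was not analysed here. Of the named regions, 1 is not reported here.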

Additional observations from a re-analysis of the deposited data

Results flagged for a closer look

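Outside chromosomes 1 to 22, X and Y, on scaffolds and the mitochondrial genome, which no comparison above uses, 1501 peaks were listed for ZBTB11 and 1165 for IgG. The ZBTB11 count was 1.29 times that of the control, which is why it is listed among these results. On chromosomes 1, 10 and 21, where both lists hold peaks, the ZBTB11 list is 1.82 times as long as the IgG list (48395 and 26630 peaks), so the excess outside the chromosomes is smaller than the difference in list length. Of the ZBTB11 peaks there, 555 overlapped an IgG peak (37.0%, 34.6 to 39.5).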

How the results depend on the processing

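With a p-value of 1e-05 or less in both lists, 539 regions were left, of which 95.9% were pericentromeric and 98.1% had a repeated summit; 86.8% of pairs were within 100 bp and the log2 ratio was -0.15. With at least 10 fragments in both lists, a setting chosen after seeing the data, the values were 580, 96.2%, 97.8%, 83.3% and -0.14. An overlap of 50% of the shorter peak gave 47.4% pericentromeric, 58.3% repeated and 58.9% within 100 bp, and a TSS distance over 10 kb gave 46.9%, 55.5% and 50.3%. Without chromosome 1, 40.5% were pericentromeric and 46.9% repeated. Counting 2 or 10 Mb around the array gave 33.7% and 42.3%, 51 bases in place of 31 gave 41.8% repeated, and limits of 50 and 200 bp gave 28.9% and 68.3% of pairs. The log2 ratio was -0.32 without division by the background and -0.11 from the deposited fold. Gaps of 50 and 500 kb gave 53 and 72 clusters, and a minimum of 10 regions gave 27. The cause of these shifts was not tested. The log2 ratio kept its sign under all alternatives that were run, and pairs limited to 1-to-1 overlaps gave 45.5% and -0.13. All alternatives kept the rule of a called peak in both lists, where the lowest pileups were 3 (ZBTB11) and 4 (IgG) fragments. The part of this rule in the ratio was not tested.

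No paired analysis was possible because each antibody has 1 library. Pileups of 3 to 9 fragments, which most arm regions have, limit the place of a summit and any ratio.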
